A study of Homo sapiens with 10 samples.

Results

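The mitochondrial genome codes for 13 messenger RNAs, 2 ribosomal RNAs and 22 transfer RNAs, and these 37 transcripts were followed across the long RNA libraries of a human airway cell line. The members were every row of the gene count tables whose symbol begins with MT-, which gave 37 of 57773 rows. The rule reads only the symbol, but it was set with earlier results of these data known. The cells were BEAS-2B, an immortalised line of human bronchial epithelium, grown in LHC9 medium with 10% FBS. Stable lines were kept under the selection drug G418 and carried either an empty vector (2 libraries) or a TAF1C vector with the pCMV6 promoter (3 libraries). TAF1C is a subunit of the selectivity factor that brings RNA polymerase I to the ribosomal RNA genes in the nucleolus. RNA was isolated with the mirVana kit, and long RNA libraries were made with the NEBNext RNA Ultra kit after ribosomal RNA depletion. The labels do not say whether a line is a single clone or a pool, nor whether the libraries of a group came from separate cultures, so p-values measure the spread between these libraries, which may be technical.

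Mitochondrial DNA is transcribed by its own polymerase, POLRMT, with the factors TFAM and TFB2M, into long precursors that cover most of each strand. One precursor yields both ribosomal RNAs, 12 of the mRNAs and 14 of the tRNAs; the precursor of the other strand yields MT-ND6 and the remaining 8 tRNAs. The tRNAs sit between the other genes, and their excision releases the mature RNAs, whose amounts then depend on stability factors such as LRPPRC. All 13 mRNAs code for core subunits of the respiratory chain complexes I, III and IV or of ATP synthase, while every subunit of complex II and the remaining subunits of the others come from nuclear genes. The gene tables give an Ensembl identifier and a biotype for each member but no coordinates, and all members lie on the mitochondrial chromosome.

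The libraries held between 22809601 and 37533366 counts each. The targeted gene did not separate the groups: TAF1C stood at 63.9 and 77.1 counts-per-million (CPM, scaled by edgeR's TMM factors) in empty vector 1 and 2 and at 63.5, 58.5 and 66.5 CPM in the libraries labelled TAF1C, a log2 fold change of -0.17 ± 0.13 (SE) with an edgeR adjusted p of 0.349. The deposited rows do not tell vector transcripts from those of the chromosomal gene. Cell type markers also went against one label: of 12 photoreceptor and retina markers, 12 and 11 reached 1 CPM with empty vector and only 7, 3 and 5 in TAF1C 1, 2 and 3. Their summed level was 1049 and 870 CPM with empty vector against 14.7, 12.2 and 11.99 CPM with TAF1C, and GNGT1 was at 0 in TAF1C libraries 1 and 3. Of 8 pigment cell markers, 5 and 5 reached 1 CPM with empty vector and 4, 4 and 4 with TAF1C; their sum was 831 and 155 CPM against 20.8, 18.0 and 20.9 CPM, nearly all of it DCT (814 and 146 CPM against 0.204 to 0.490 CPM), while MITF was higher with TAF1C (4.09 and 2.43 CPM against 9.13 to 9.77 CPM). Of 10 airway line markers, 10 and 6 reached 1 CPM with empty vector and 8, 6 and 8 with TAF1C, which does not separate the groups. Their sum was 661 and 720 CPM against 2117, 2056 and 2131 CPM. KRT7, KRT8, KRT18, CAV1 and VIM were higher in each TAF1C library than in both empty vector libraries, EPCAM was lower (14.6 and 1.09 CPM against 0.0565 to 0.429 CPM), and KRT19, KRT5, TP63 and CDH1 overlapped. The group contrast below therefore also contrasts libraries of different marker content, and the part of those markers in any result was not tested.

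Mitochondrially encoded transcripts made up a small part of every library. The 37 rows together took 8570 and 16867 counts with empty vector, or 0.0376% and 0.0592% of all counts, and 21248, 12539 and 15408 counts with TAF1C, or 0.0566%, 0.0344% and 0.0450%. No pair of libraries had overlapping 95% exact (Clopper-Pearson) intervals; the widest interval, that of empty vector 2, ran from 0.0583% to 0.0601%. These intervals cover counting error only. Libraries of 1 group thus differed more than counting error allows, and the groups overlapped. The means were 0.0484% ± 0.0153 (SD, n = 2) with empty vector and 0.0453% ± 0.0111 (SD, n = 3) with TAF1C, with a two-sided exact permutation p of 0.8. With 2 libraries against 3, the smallest p this test can give is 0.2. The share turned from lower to higher with TAF1C without empty vector 2 (difference 0.00777 percentage points) and without TAF1C 2 (0.00242 percentage points). In bulk RNA, fewer mitochondria, less RNA in each and a different mixture of cells cannot be told apart.

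Nearly all of these counts were messenger RNA. Over the 5 libraries the mRNAs held 70795 counts, the rRNAs 3473 and the tRNAs 364. The mRNA share of all counts was 0.0362% and 0.0571% with empty vector against 0.0532%, 0.0322% and 0.0426% with TAF1C (exact permutation p = 0.8, adjusted over the 3 classes 0.8). For the tRNAs the share was 0.000149% and 0.000274% against 0.000320%, 0.000159% and 0.000216% (exact permutation p = 0.8, adjusted 0.8). Only the rRNAs had groups that did not overlap: 0.00126% and 0.00189% with empty vector against 0.00310%, 0.00200% and 0.00220% with TAF1C (exact permutation p = 0.2, adjusted 0.6).

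The NADH dehydrogenase at the entry of the chain, complex I, takes 7 of its subunits from mitochondrial mRNAs. MT-ND4, a proton-pumping subunit of its membrane arm, was the most abundant of them at 52.4 and 122 CPM with empty vector and 98.5, 57.9 and 75.4 CPM with TAF1C. MT-ND5, the pumping subunit at the far end of that arm, stood at 35.3 and 53.3 CPM against 50.8, 28.3 and 40.6 CPM. Both genes had their TAF1C values inside or close to the range of the empty vector pair, with TAF1C 2 the lowest of its group. MT-ND1, which forms part of the quinone-binding site, was at 9.26 and 19.9 CPM against 16.8, 7.32 and 12.9 CPM. MT-ND2, a further pumping subunit, was at 12.6 and 25.1 CPM against 21.4, 9.97 and 13.5 CPM. MT-ND3, MT-ND4L and MT-ND6, small membrane subunits, ranged from 3.02 to 6.88 CPM, from 5.09 to 12.4 CPM and from 5.31 to 10.9 CPM over the libraries. In every one of the 7 the groups overlapped, and the order empty vector 2 over empty vector 1 and TAF1C 1 over TAF1C 2 was the same.

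MT-CYB codes for cytochrome b, the only mitochondrially encoded subunit of complex III. It was at 17.2 and 30.2 CPM with empty vector and at 38.2, 19.3 and 25.8 CPM with TAF1C, so the groups overlapped. Complex IV, cytochrome c oxidase, takes its catalytic core from MT-CO1, MT-CO2 and MT-CO3. MT-CO1, which holds the oxygen-reducing site, was the most abundant member in each library at 115 and 189 CPM against 229.5, 157 and 197 CPM. MT-CO2, where cytochrome c docks, stood at 10.7 and 20.1 CPM against 19.4, 11.1 and 14.3 CPM. MT-CO3, the third core subunit, had the widest ratio within the empty vector pair among the mRNAs, 2.84-fold from 18.0 to 51.2 CPM, and lay at 39.7, 22.3 and 31.1 CPM with TAF1C. ATP synthase takes its proton-channel subunit a from MT-ATP6 and a small stalk subunit from MT-ATP8, and the reading frames of these genes overlap, as do those of MT-ND4L and MT-ND4; the sources used here do not say how reads in such overlaps were counted. MT-ATP6 was at 17.3 and 29.9 CPM against 22.5, 13.1 and 17.1 CPM, and MT-ATP8, the rarest mRNA, at 0.848 and 1.97 CPM against 1.498, 0.875 and 1.20 CPM.

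**Figure D1:**
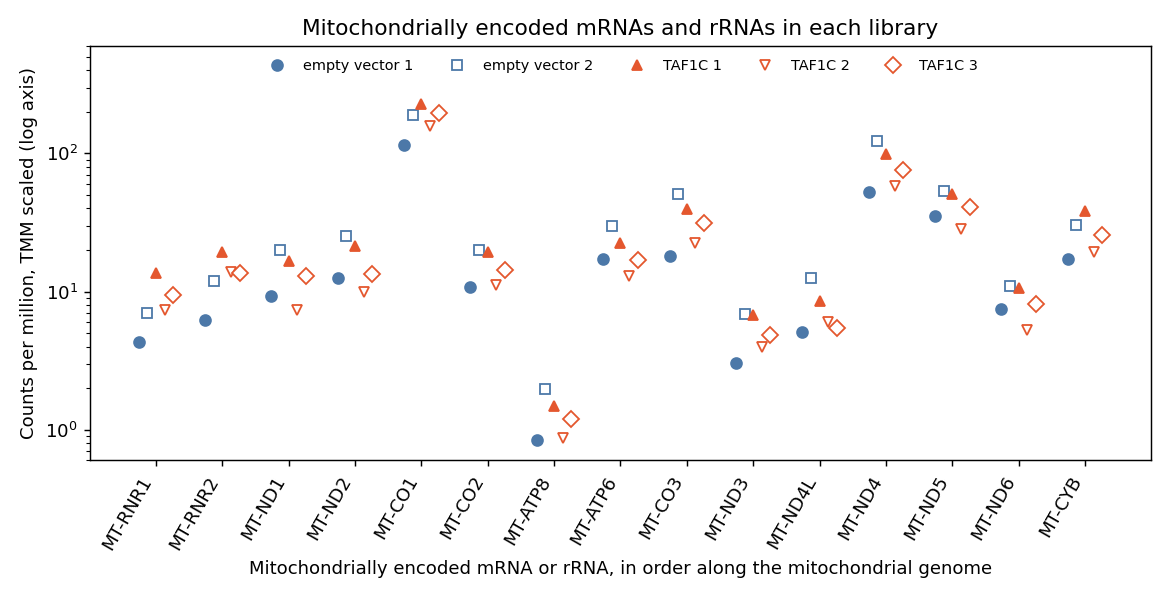
Level of the 13 mRNAs and 2 rRNAs in CPM (log axis) in each of the 5 libraries, in gene order along the mitochondrial genome. Empty vector 2 (open squares) lies above empty vector 1 (filled circles) for all 15, and the groups separate only at MT-RNR1 and MT-RNR2.

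Set against gene length, the counts of the mRNAs of one precursor were far from equal. The sources used here do not say whether mitochondrial reads were removed. Nor do they say how reads that match nuclear copies were counted, and the part of either in these differences was not tested. Lengths came from the RefSeq annotation of GRCh38.p14, which was matched for 37 of 37 members, and levels are given as CPM per kilobase. MT-CO1 led with 74.6 and 122 per kilobase with empty vector and 149, 102 and 127 with TAF1C. That was 4.84, 4.39, 5.28, 6.40 and 6.50 times the median of the other 12 mRNAs in empty vector 1 and 2 and TAF1C 1, 2 and 3. MT-ND4 came next in each library, at 38.0 and 88.7 per kilobase against 71.5, 42.1 and 54.7. Below it lay MT-CO3, whose group means were 44.1 ± 29.9 (SD, n = 2) and 39.6 ± 11.1 (SD, n = 3) per kilobase, and MT-ATP6, with 34.7 ± 13.1 (SD, n = 2) and 25.8 ± 6.95 (SD, n = 3). Within a library MT-CO3 was above MT-ATP6 in 4 of 5 and below it in empty vector 1, at 23.0 against 25.4 per kilobase. The lowest was MT-ATP8 at 4.10 and 9.54 per kilobase against 7.24, 4.23 and 5.78. Highest over lowest mRNA spanned 12.8-fold in empty vector 2 to 24.1-fold in TAF1C 2. MT-ND6, from the other precursor, was within this range at 17.5 ± 4.64 (SD, n = 2) and 15.3 ± 5.04 (SD, n = 3) per kilobase, close to MT-ND1 and MT-ND2 on the same scale.

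**Figure D2:**
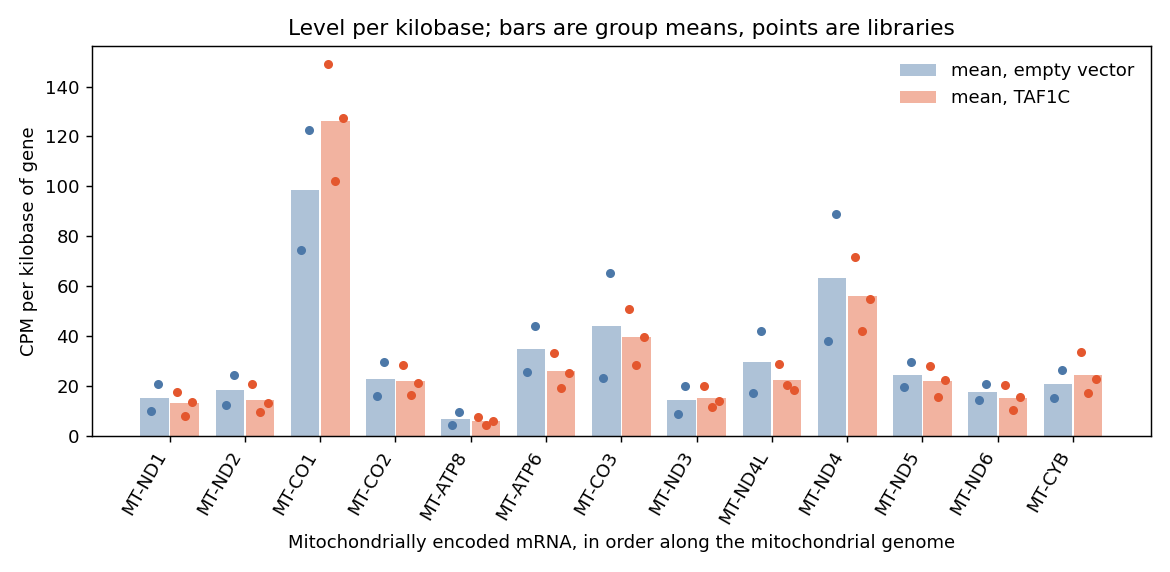
CPM per kilobase of gene for the 13 mRNAs in gene order; bars are group means and points are single libraries. MT-CO1 stands highest in both groups, from 74.6 to 149 per kilobase, followed by MT-ND4, and MT-ATP8 is lowest.

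The edgeR quasi-likelihood test, fitted on all 18401 genes with at least 1 CPM in at least 2 libraries, took in 16 of the 37 members: all mRNAs, both rRNAs and the tRNA MT-TP. None of the 16 was raised and none lowered at an adjusted p under 0.05, and none had an unadjusted p under 0.05 with edgeR. DESeq2 also called 0 of the 16, but 2 had an unadjusted p under 0.05. Its adjusted p was 0.070 for MT-RNR1 and 0.073 for MT-RNR2. With edgeR 38.5% of all tested genes were called, 15.8% raised and 22.6% lowered. The members' log2 fold changes ran from -0.43 ± 0.32 (SE) for MT-ATP6 (adjusted p = 0.335) to 0.84 ± 0.37 for MT-RNR1 (adjusted p = 0.126). Their median was -0.15 beside -0.10 over all tested genes. Among the mRNAs MT-CO1 had the highest value, 0.36 ± 0.26 (edgeR adjusted p = 0.326). A p above the threshold does not show equal levels: the standard errors of the members ranged from 0.26 to 0.53. CPM of the groups did not overlap for 2 of the 16, both rRNAs and both higher with TAF1C, where 64.2% of all tested genes had groups that did not overlap, 29.8% higher and 34.4% lower.

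Which empty vector library served as the control decided the direction for most mRNAs. Without empty vector 1, edgeR called 8 members lowered and 0 raised: MT-ATP6, MT-CO2, MT-CO3, MT-ND1, MT-ND2, MT-ND4, MT-ND4L and MT-ND5, by 0.48 to 0.97 on the log2 scale. All genes were then raised in 29.0% and lowered in 29.5%, and the members' median was -0.50. Without empty vector 2, 7 members were raised and 0 lowered: MT-CO1, MT-CO3, MT-CYB, MT-ND3, MT-ND4, MT-RNR1 and MT-RNR2, by 0.53 to 1.29. All genes were then raised in 35.8% and lowered in 34.0%, and the median was 0.49. MT-CO3 went from -0.79 (adjusted p = 8.0e-05) without empty vector 1 to 0.76 (adjusted p = 0.00069) without empty vector 2, and MT-ND4 from -0.73 (adjusted p = 4.9e-05) to 0.53 (adjusted p = 0.0038). These fits leave 1 empty vector library and take the spread from the TAF1C libraries, so that the lone library is assumed to vary as they do.

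The mRNAs and rRNAs went up and down as one between libraries of the same label. Empty vector 2 exceeded empty vector 1 in 15 of 15 mRNAs and rRNAs, by a median log2 ratio of 0.93 (range 0.55 to 1.51), whereas over all tested genes 48.9% were higher and the median was -0.02. TAF1C 1 exceeded TAF1C 2 in 15 of 15, by 0.80 at the median, and TAF1C 1 exceeded TAF1C 3 in 15 of 15, by 0.40. TAF1C 3 exceeded TAF1C 2 in 13 of 15, by a median of 0.39. The members share each library's RNA and depth, so the 15 are not independent. The standard deviation of log2 CPM over the TAF1C libraries had a median of 0.41 for the 16 tested members (range 0.27 to 0.61). Over the 15609 other genes in the same range of mean CPM it was 0.11. Between the empty vector libraries the members differed by a median of 0.96 on the log2 scale, against 0.50 for those genes.

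The ribosomal RNAs of the mitochondrial ribosome were the only tested members whose groups did not overlap, though neither passed the test. MT-RNR1, the 12S RNA of the small subunit, had 118 and 198 counts with empty vector and 484, 251 and 307 with TAF1C, or 4.35 and 6.98 CPM against 13.7, 7.32 and 9.41 CPM. MT-RNR2, the 16S RNA of the large subunit, had 170 and 340 counts against 681, 477 and 447, or 6.27 and 11.99 CPM against 19.2, 13.9 and 13.7 CPM. In both genes each TAF1C library lay above each empty vector library, with TAF1C 1 the highest and empty vector 1 the lowest. The log2 fold changes were 0.84 ± 0.37 (SE) for MT-RNR1 (edgeR adjusted p = 0.126) and 0.77 ± 0.34 for MT-RNR2 (adjusted p = 0.123). Only leaving out empty vector 2 brought them past the threshold, at 1.19 (adjusted p = 0.00022) and 1.29 (adjusted p = 1.7e-06). Per kilobase these RNAs stayed low, at 5.94 ± 1.95 (SD, n = 2) and 10.6 ± 3.40 (SD, n = 3) for MT-RNR1 and 5.86 ± 2.59 (SD, n = 2) and 10.0 ± 2.02 (SD, n = 3) for MT-RNR2, below the mean of each mRNA with empty vector and of each but MT-ATP8 with TAF1C. The libraries had been depleted of ribosomal RNA, and the sources used here do not say whether the probes covered the mitochondrial species. The 526 rows of biotype rRNA, which does not include MT-RNR1 or MT-RNR2, were lower with TAF1C. They took 0.00602% and 0.00352% of all counts with empty vector against 0.00263%, 0.00265% and 0.00255% with TAF1C. Which rRNAs these rows hold was not examined, and the part of depletion in the rRNA values was not tested.

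Shares within the mitochondrial counts do not depend on how libraries are scaled, and several of them did not overlap between the groups. Ribosomal RNA took 3.36% and 3.19% of MT- counts with empty vector and 5.48%, 5.81% and 4.89% with TAF1C, a ratio of means of 1.65 (exact permutation p = 0.2, the smallest possible with 2 against 3). Against 100 mRNA counts MT-RNR1 had 1.43 and 1.22 counts with empty vector, and 2.42, 2.14 and 2.11 in TAF1C 1, 2 and 3. The corresponding values of MT-RNR2 were 2.06 and 2.09 against 3.41, 4.06 and 3.07. The balance between the rRNAs themselves overlapped, with 69.4 and 58.2 counts of MT-RNR1 per 100 of MT-RNR2 against 71.1, 52.6 and 68.7 (exact permutation p = 1).

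MT-CO1 took 37.8% and 33.0% of the mRNA counts with empty vector and 40.7%, 45.9% and 44.0% with TAF1C. Each TAF1C library was above both empty vector libraries. MT-ATP6 went from 5.69% and 5.22% to 3.99%, 3.81% and 3.82%, a ratio of means of 0.710. MT-ND2 went from 4.15% and 4.39% to 3.79%, 2.91% and 3.02%, a ratio of 0.759. In all, 8 of 13 mRNAs had shares that did not overlap between the groups: MT-CO1 was higher with TAF1C, and MT-ND1, MT-ND2, MT-CO2, MT-ATP8, MT-ATP6, MT-ND5 and MT-ND6 were lower. On the other scale given above, CPM, 64.2% of all tested genes did not overlap, so 8 of 13 is near the background and not a result about these mRNAs. The shares also sum to the whole, so a higher share of the most abundant mRNA lowers the rest. For each of the 8 the exact permutation p was 0.2, or 0.325 adjusted over the 13 mRNAs, and none passed the threshold. MT-CO2 differed by little, 3.53% and 3.51% against 3.44%, 3.24% and 3.20%. By complex, the 7 complex I mRNAs took 41.1% and 43.8% against 37.8%, 34.7% and 36.0%, and the complex IV mRNAs 47.2% and 45.4% against 51.2%, 55.6% and 54.2% (exact permutation p = 0.2 for each).

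**Figure D3:**
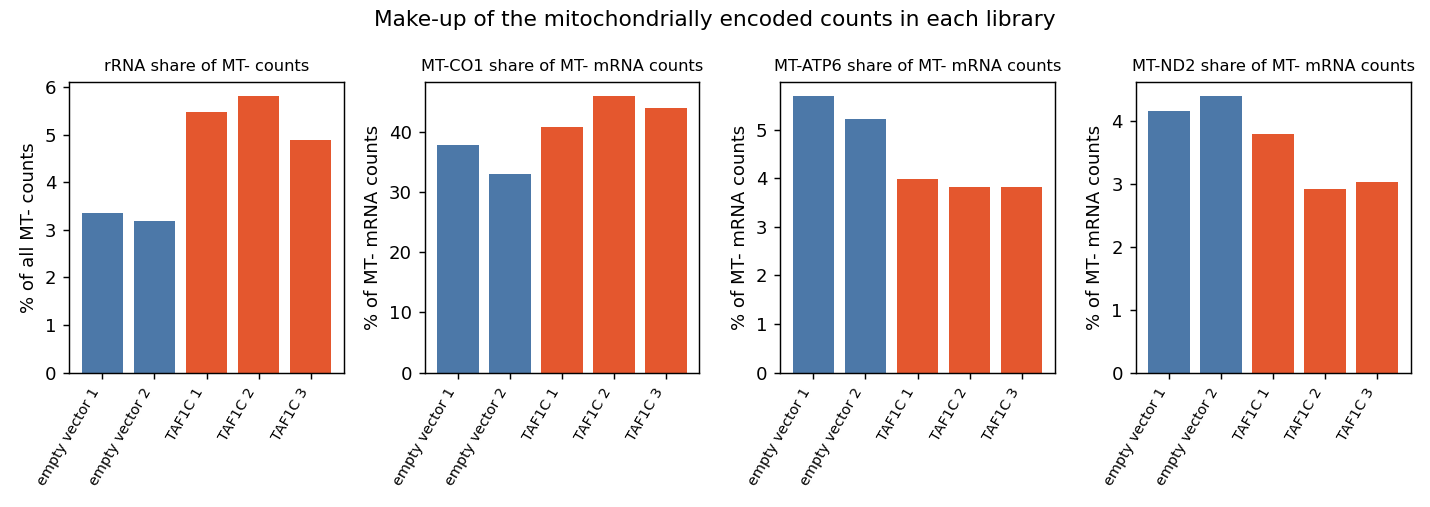
Make-up of the mitochondrial counts in each library: the rRNA share of all MT- counts and the shares of MT-CO1, MT-ATP6 and MT-ND2 among mRNA counts, in percent. The rRNA and MT-CO1 shares are higher in all 3 TAF1C libraries than in both empty vector libraries, and the MT-ATP6 and MT-ND2 shares are lower.

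Transfer RNAs, which read the codons of the 13 mRNAs, were barely captured in these long RNA libraries. Of the 22, 7 had no count in any library, which allows a share of up to 1.3e-05% in empty vector 1 (3 counts of its total): MT-TV, MT-TL1, MT-TQ, MT-TD, MT-TR, MT-TL2 and MT-TT. MT-TP, the proline tRNA, was the most abundant with 20 and 49 counts with empty vector and 71, 33 and 44 with TAF1C. No other tRNA passed the filter on low values. Its log2 fold change was 0.22 ± 0.53 (SE, edgeR adjusted p = 0.766). The next were MT-TF, the phenylalanine tRNA, with 4 and 13 counts against 12, 6 and 5, and MT-TS1, one of the serine tRNAs, with 2 and 5 against 12, 8 and 9; the groups of MT-TS1 did not overlap, and it was not tested.

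The tRNA counts were unequal between the strands. The 8 tRNAs that share a precursor with MT-ND6 held 313 of the 364 tRNA counts, or 86.0%, and 5 of them had a count in every library (MT-TA, MT-TY, MT-TS1, MT-TE and MT-TP). The 14 of the other precursor held 51 counts, and only MT-TF had a count in every library. Per library the first set had 28 and 64 counts with empty vector and 102, 51 and 68 with TAF1C, against 6 and 14 and then 18, 7 and 6 for the second. MT-TP alone gave 217 of the 313 counts. The sources used here do not say whether the counting used strand, and without strand reads of one precursor cannot be told from reads of the opposite one across the same gene. The tRNA share of MT- counts was 0.397% and 0.462% with empty vector against 0.565%, 0.463% and 0.480% with TAF1C, groups that did not overlap but all but touched (exact permutation p = 0.2). The sums by strand were not tested.

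The respiratory complexes also need nuclear subunits, and many of these were raised with TAF1C while no mitochondrially encoded one was called. The 16 tested members had a median standard error of 0.38, against 0.25 for other genes in the same range of mean CPM. A like change was therefore harder to call in the members. Of 78 tested nuclear subunits of complexes I to IV and ATP synthase, 33 were raised and 0 lowered, with a median log2 fold change of 0.68 beside -0.10 over all genes, of which 15.8% were raised. Without TAF1C 1 or TAF1C 3 only 2 were raised, where 5.84% and 5.94% of all genes were. The median of these subunits was 0.27 without empty vector 1 and 1.08 without empty vector 2. Complex I had 14 of 37 raised, among them NDUFS8, an iron-sulphur subunit, at 52.9 and 79.5 CPM against 148, 139.5 and 145 CPM (log2 fold change 1.12 ± 0.19 SE). NDUFV1, the NADH-binding subunit, was raised by 0.82 ± 0.15, and NDUFC2, a small accessory subunit, by 0.95 ± 0.19 (edgeR adjusted p from 0.0081 to 0.012 for the 3). In complex II, with no mitochondrial subunit, 2 of 4 were raised: the flavoprotein SDHA by 0.80 ± 0.14 and the iron-sulphur protein SDHB by 1.003 ± 0.21.

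Complex III had 6 of 9 raised, including the Rieske protein UQCRFS1 (0.83 ± 0.17), cytochrome c1 CYC1 (1.05 ± 0.23) and the core protein UQCRC1 (1.01 ± 0.23). Complex IV had 4 of 11 raised, including the regulatory subunit COX4I1 (0.87 ± 0.20) and the small subunits COX8A (0.82 ± 0.22) and COX7C (0.74 ± 0.22). ATP synthase had 7 of 17 raised, including ATP5MC1, a subunit c gene listed as ATP5G1 (1.08 ± 0.15), ATP5MK, listed as USMG5 (1.16 ± 0.27), and ATP5F1E, the epsilon subunit listed as ATP5E (1.01 ± 0.24). One subunit, picked out after its values were seen, was far off in a single library: ATP5F1A, the alpha subunit listed as ATP5A1, stood at 6870 CPM in empty vector 2, 277 CPM in empty vector 1 and 453 to 472 CPM with TAF1C, and was not called (log2 fold change -2.95 ± 1.10, edgeR adjusted p = 0.081). It was called lowered without the filter on low values (-2.98, edgeR adjusted p = 0.017) and without empty vector 1 (-3.96, adjusted p = 3.1e-30), and raised without empty vector 2 (0.71, adjusted p = 1.1e-09). Apart from ATP synthase, the lists had summed levels that were lowest in empty vector 1, then empty vector 2, then the TAF1C libraries, as for complex IV with 711 and 1225 CPM against 1564, 1608 and 1539 CPM.

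**Figure D4:**
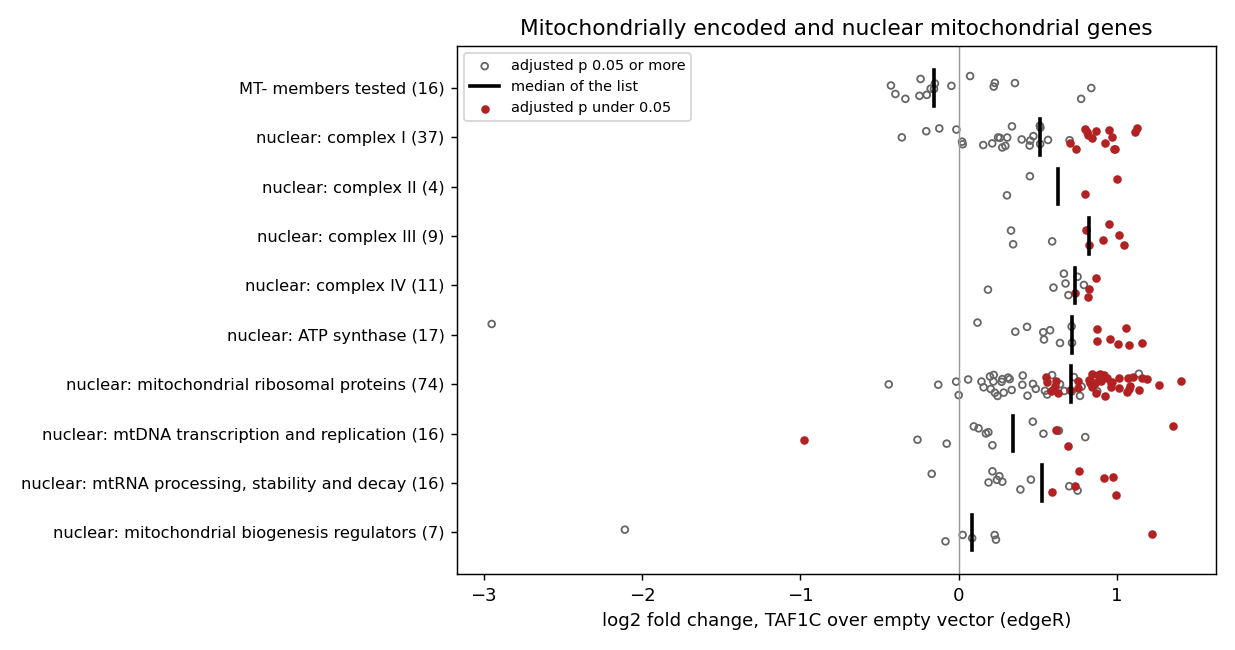
Log2 fold change of TAF1C over empty vector for the 16 tested members and for the tested genes of each nuclear list (number in parentheses), filled where the edgeR adjusted p was under 0.05, with black bars at list medians. No member is filled and their median is -0.15, whereas the nuclear subunit lists have medians from 0.51 to 0.83. The median standard error was 0.38 for the members and 0.25 for other genes in the same range of mean CPM.

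Genes that make, process and translate mitochondrial RNA gave counts that varied from list to list. Of 16 tested genes of mitochondrial DNA transcription and replication, 3 were raised and 1 lowered, with a median of 0.34; the number raised is near the 15.8% of all tested genes. SSBP1, the single-strand DNA-binding protein, was raised by 1.35 ± 0.24, the exonuclease MGME1 by 0.69 ± 0.14 and MTERF3, listed as MTERFD1, by 0.61 ± 0.15. MTERF2, listed as MTERFD3 and of the same transcription factor family, fell by 0.98 on the log2 scale (SE 0.22, edgeR adjusted p = 0.018), a call lost with quantile normalization, without the filter on low values, with the replicate block and without any 1 TAF1C library. The polymerase POLRMT was not called, at 55.3 and 110.6 CPM against 123, 107 and 114 CPM (0.47 ± 0.29, edgeR adjusted p = 0.245), and neither was TFAM, which also packs the DNA, at 70.2 and 115 CPM against 141, 152 and 135 CPM (0.62 ± 0.22, adjusted p = 0.073). TFB2M stood at 12.98 and 26.6 CPM against 30.8, 32.1 and 29.2 CPM (0.63 ± 0.31, edgeR adjusted p = 0.152). All 3 were lowest in empty vector 1.

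Among 16 tested genes of mitochondrial RNA processing, stability and decay, 6 were raised and 0 lowered (median 0.52). Over all tested genes 15.8% were raised and 22.6% lowered. The 6 were led by TBRG4 (0.76 ± 0.16) and FASTK (0.99 ± 0.22), members of a family of mitochondrial RNA-binding proteins, and by the oligoribonuclease REXO2 (0.92 ± 0.19). LRPPRC, which stabilises the mRNAs, was not called, at 235 and 557 CPM against 469, 496 and 457 CPM (0.26 ± 0.35, edgeR adjusted p = 0.597). Of the proteins of the mitochondrial ribosome, in which MT-RNR1 and MT-RNR2 are assembled, 38 of 74 were raised and 0 lowered. Without 1 TAF1C library as few as 10 were raised, where 5.84% to 6.47% of all genes were. Their median was 0.71, and it was 0.34 without empty vector 1 and 1.03 without empty vector 2. MRPL24 was raised by 1.16 ± 0.13, MRPL10 by 0.97 ± 0.12 and MRPL17 by 0.85 ± 0.11 (edgeR adjusted p from 0.0023 to 0.0039). Of 7 regulators of mitochondrial biogenesis only the nuclear receptor ESRRA was raised, by 1.22 ± 0.27, and the median was 0.09. The coactivator PPARGC1A stood at 11.7 and 0.952 CPM against 1.16, 1.60 and 1.62 CPM and was not called (-2.11 ± 0.92, edgeR adjusted p = 0.119).

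The number of nuclear calls varied with the library left out. Over all 9 nuclear lists 81 of 191 tested genes were raised and 1 lowered, with a median log2 fold change of 0.62. Without TAF1C 1, 2 or 3 in turn, 13, 17 and 13 were raised and 0 lowered, where 5.84%, 6.47% and 5.94% of all genes were raised, and the lists' medians stayed at 0.63, 0.62 and 0.63. Without empty vector 1, 100 were raised and 16 lowered, where 29.0% and 29.5% of all genes were, and the median was 0.27. Without empty vector 2, 172 were raised and 3 lowered, where 35.8% and 34.0% of all genes were, and the median was 0.997. The replicate block pairs libraries by number. TAF1C 3 has no partner, so the contrast then rests on empty vector 1 and 2 and TAF1C 1 and 2. The block left 63 raised, where 7.82% of all genes were. Dropping the filter on low values left 60, where 3.7% were. The 25 named nuclear genes past the threshold were picked for the smallest adjusted p in the fit of all libraries, which favours keeping a call. The share of all called genes that kept theirs was not computed. Of the 25, 5 kept their call in every fit with 1 library left out (NDUFS8, ATP5MC1, MRPL24, MRPL10 and MRPL17). In all 6 other settings read for these genes 17 of the 25 kept it. Besides MTERF2, the genes COX4I1, COX7C, MGME1, MTERF3, NDUFC2, NDUFV1 and SDHA lost it with the replicate block. COX7C, MGME1 and MTERF3 also lost it without the filter. Scaling to mitochondrial mRNA counts, under which 1.96% of all genes were raised, was not read for nuclear genes. The summed photoreceptor markers and the pigment cell gene DCT, given above, were lower with TAF1C, and their part in these calls was not tested.

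The mitochondrial mRNAs of a complex can be set against its nuclear subunits within each library, a ratio that needs no scaling between libraries. For complex I there were 9.20 and 11.8 mitochondrial counts per 100 nuclear counts with empty vector and 8.21, 4.57 and 6.20 with TAF1C, a ratio of means of 0.601. For complex III there were 2.85 and 2.87 against 2.63, 1.33 and 1.85, a ratio of 0.677. For complex IV there were 20.2 and 21.2 against 18.5, 11.9 and 15.7, a ratio of 0.740. The groups did not overlap in these 3 complexes (two-sided exact permutation p = 0.2 each, adjusted over 4 complexes 0.267, not past the threshold). By CPM, 64.2% of all tested genes had groups that did not overlap. The mitochondrial CPM of each of these complexes overlapped between the groups, as for complex IV with 144 and 260 against 289, 191 and 242. Their summed nuclear CPM was higher in each TAF1C library than in both empty vector libraries. The ratios are thus not separate from the nuclear levels given above. Empty vector 1 and 2 lay close together for complexes III and IV although their absolute levels differed. ATP synthase overlapped, at 1.33 and 0.365 against 0.819, 0.461 and 0.622 (exact permutation p = 0.8). With ATP5F1A left out, a choice made after its value in empty vector 2 was seen, the ATP synthase values were 1.67 and 1.71 against 0.972, 0.547 and 0.736, a ratio of 0.445.

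**Figure D5:**
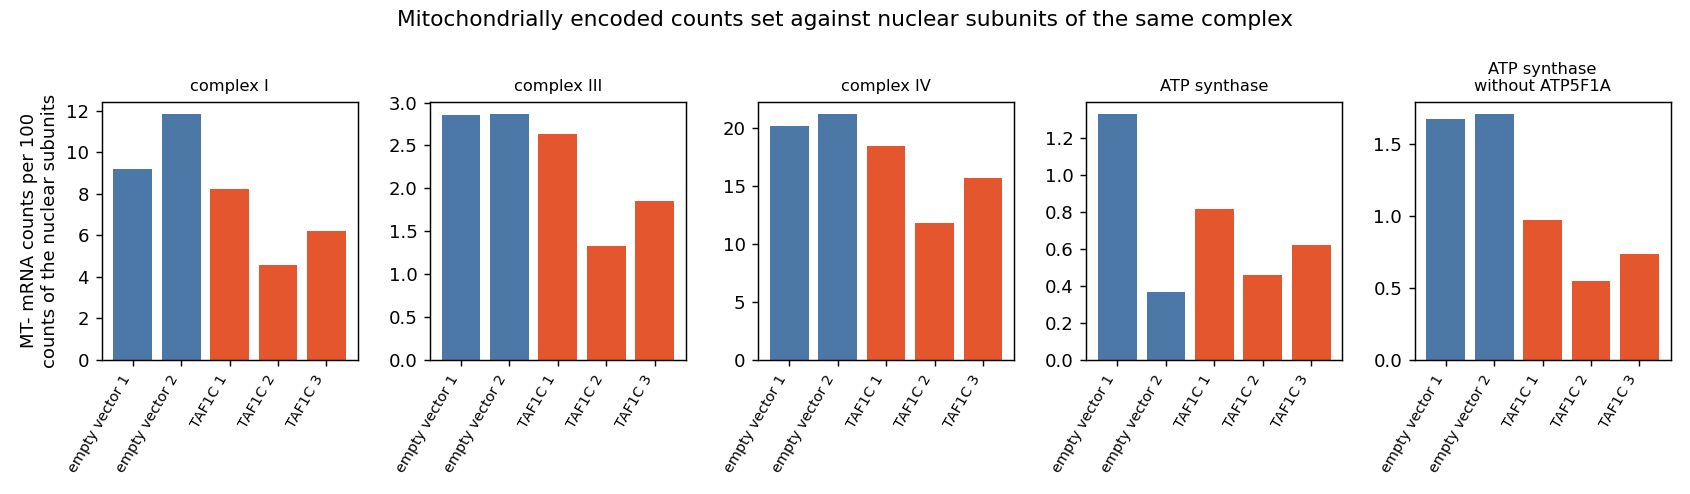
Mitochondrially encoded mRNA counts per 100 counts of the nuclear subunits of the same complex in each library, with ATP synthase shown with and without ATP5F1A. TAF1C libraries lie below both empty vector libraries in each panel except ATP synthase with ATP5F1A, where empty vector 2 is lowest at 0.365.

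Nuclear DNA holds old copies of mitochondrial sequence, and reads can match both. The 188 rows named as such copies had 1269 and 399 counts with empty vector and 444, 459 and 427 with TAF1C. Empty vector 1 stood apart with 0.00556% of all counts, against 0.00118% to 0.00140% in the others, while its share on the members themselves, 0.0376%, was the lowest but one. Named outside the rule for named genes, MTND2P26, a copy of MT-ND2, had 205 counts there, 15 in empty vector 2 and 6, 6 and 14 with TAF1C. MTND1P36, a copy of MT-ND1 also named outside that rule, had 110, 11, 2, 6 and 6. For comparison, MT-ND2 itself had 342 counts in empty vector 1 and MT-ND1 had 251. The 13 MTRNR2L rows, copies of MT-RNR2, had 74 and 30 counts against 39, 46 and 40, fewer than MT-RNR2 in each library. Rows of the pseudogene biotype as a whole were also highest in empty vector 1, at 1.61% of counts against 1.05% in empty vector 2 and 0.969% to 1.01% with TAF1C. The sources used here do not say how reads that match both places were counted, so members with near-identical copies are uncertain to that extent.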

How the data were processed

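Long RNA was measured in 5 BEAS-2B libraries, 2 with empty vector and 3 with TAF1C. The authors deposited one table of whole-number read counts per gene for each library. The submitters' processing notes name hg19, Cufflinks 2.2.1, HISAT2, DESeq2, Bowtie2 2.2.4 and Trimmomatic 0.36, without roles; strand, annotation and the treatment of reads with several matches are not given in the sources used here. Small RNA tables were not used. Counts were tested with edgeR 4.0.16 (quasi-likelihood, TMM, genes reaching 1 CPM in 2 or more libraries, Benjamini-Hochberg over 18401 genes, threshold 0.05, two-sided), kept apart by gene ID. SD of log2 CPM used a prior count of 2. The scripts were tested on simulated data. Shares were compared by exact two-sided permutation over libraries (scipy 1.17.1), with 95% exact binomial intervals. Alternatives were library totals, scaling without MT- rows, quantile normalization, DESeq2 1.42.0, no filter, a replicate block and leaving out each library. Scaling to mitochondrial mRNA counts, not read for the nuclear lists, and leaving out ATP5F1A were added after seeing the data. Named genes were all members that are mRNA or rRNA, tRNAs past the test and the most and least abundant, the 3 smallest adjusted p per nuclear list and direction, and POLRMT, TFAM, TFB2M, LRPPRC, PPARGC1A and TAF1C. Exceptions are marked, apart from further tRNAs, which were named by their counts. The markers, members and lists were chosen with earlier results of these data known.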

Additional observations from a re-analysis of the deposited data

How the results depend on the processing

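No member was called under library totals, scaling without MT- rows, quantile normalization, DESeq2, no filter, the replicate block or scaling to mitochondrial mRNA counts. Leaving out 1 library gave 0 to 7 members raised and 0 to 8 lowered, and 13 to 172 nuclear genes raised and 0 to 16 lowered. The 1 lowered nuclear gene became 0 with quantile normalization and 0 with the replicate block, which pairs libraries by number. The deviations of same-numbered libraries correlated at 0.043 and 0.136 in only 2 pairs, and the block called 1439 genes raised and 2693 lowered against 2916 and 4164 without it.

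Library totals moved the median of all genes from -0.10 to -0.32 and quantile normalization moved it to 0.18; of all calls 41.2% were raised under TMM, 31.5% under library totals and 55.6% under quantile normalization. On the log2 scale quantile normalization reversed MT-ATP8 (0.58), MT-CO2 (0.37), MT-ND1 (0.22), MT-ND2 (0.035), MT-ND4L (0.26), MT-ND6 (0.48) and LRPPRC (-0.076). MT-CO2 was 0.0051 with DESeq2 and 0.010 without a filter, and MT-ND3 was -0.087 with library totals. None of these passed the threshold in either fit. Without the overlapping gene pairs the MT-ND3 share of mRNA counts changed by -0.020 percentage points. The cause of these reversals was not tested.

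With 1 library left out, log2 fold changes changed sign for 13 of the 16 tested members. They ran from -0.023 to 0.73 for MT-CO1, from -0.49 to 0.45 for MT-CO2, from -0.79 to 0.76 for MT-CO3 and from -0.18 to 0.66 for MT-CYB. The complex I mRNAs ran from -0.75 to 0.38 (MT-ND1), -0.81 to 0.21 (MT-ND2), -0.46 to 0.75 (MT-ND3), -0.73 to 0.53 (MT-ND4), -0.97 to 0.35 (MT-ND4L), -0.48 to 0.15 (MT-ND5) and -0.51 to 0.066 (MT-ND6). MT-ATP8 ran from -0.79 to 0.46 and MT-TP from -0.33 to 0.93. Of the nuclear genes, ATP5A1 ran from -3.96 to 0.71, LRPPRC from -0.30 to 0.98, POLRMT from -0.011 to 1.02 and PPARGC1A from -3.03 to 0.55. Differences in the share of all counts, in percentage points, ran from -0.0139 to 0.00777 for all MT- rows, from -0.0144 to 0.00651 for the mRNAs and from -4.2e-05 to 8.3e-05 for the tRNAs. Within the mRNA counts they ran from -2.09 to 0.924 for MT-CO3 and from -0.0506 to 0.155 for MT-ND3. The log2 ratio of mitochondrial to nuclear ATP synthase counts ran from -1.07 to 0.80. The rRNA share of MT- counts and the ratios of complexes I, III and IV kept their direction. Their groups did not overlap, so leaving out 1 library could not have reversed them. Depth limits the tRNAs most, at 34 to 120 counts per library.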
